A study of Mus musculus with 8 samples.

Results

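The dual-specificity phosphatases that act on MAP kinases were examined in mouse embryos at the 2-cell stage, in wild type embryos and in embryos labelled Brg1 mutant. The 10 genes are Dusp1, Dusp2, Dusp4, Dusp5, Dusp6, Dusp7, Dusp8, Dusp9, Dusp10 and Dusp16, chosen by gene family from 18193 genes with an unambiguous symbol on the array. Dusp5 was picked for its fall in the mutants, so its own difference between the groups is given as a description, with no test. The 10 genes were read by 18 of 45037 probe sets. Of these, 10 probe sets of 8 genes lay in the brighter 50% of the array and were tested, and all probe sets of Dusp8 and Dusp9 fell below that filter. By its title the series is about maternal BRG1 and zygotic genome activation in mouse. BRG1 is a chromatin remodelling ATPase, and its gene is Smarca4. Wild type embryos (4 samples) were compared with embryos labelled Brg1 mutant (4 samples), each sample being the total RNA of 20 pooled embryos. The allele, the strain and the driver of any deletion are not given in the sources used here, and the labels name no treatment.

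These phosphatases remove the activating phosphates from the threonine and tyrosine of the MAP kinase activation loop and so switch ERK, JNK or p38 kinases off. Dusp1, Dusp2, Dusp4 and Dusp5 encode nuclear enzymes that growth factors and stress induce quickly, which makes them negative feedback of the pathway. Dusp6, Dusp7 and Dusp9 encode cytoplasmic enzymes that prefer ERK, and Dusp8, Dusp10 and Dusp16 encode enzymes that prefer JNK and p38. In the egg, the MOS and ERK pathway holds meiosis in arrest until fertilisation, and in later embryos FGF signals through ERK to set the early lineages.

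Signals below are MAS5 values, a linear brightness per probe set, which cannot be compared between probe sets. The brighter Smarca4 probe set read 612 to 796 in wild type and 201 to 387.5 in mutant samples, so the targeted gene followed the labels there, while its dimmer probe set overlapped between the groups. Markers of the labelled material were present: 12 of 13 oocyte and 2-cell markers lay above a background bound, the 95th percentile of control probe sets on each array, on every array of each group. The mutant arrays were not alike, and replicates 3 and 4 formed the tighter pair. Over the tested probe sets r was 0.969 between replicates 3 and 4, and 0.738 to 0.774 between either of them and replicates 1 or 2. Between replicates 1 and 2 it was 0.895, near the highest of the 0.828 to 0.890 that they reached with wild type. Wild type samples reached 0.916 to 0.969 with each other. The mean hybridisation control signal was 6953 and 4740 in mutant replicates 1 and 2 and 988 to 1809 on the other arrays. In replicates 3 and 4, 12 of 18 granulosa and cumulus cell markers exceeded all other samples, and the summed marker signal was 20305 to 23836 against 2630.5 to 3508 in wild type and 1857 to 3028 in mutant replicates 1 and 2. On both arrays 17 of the 18 lay above the bound, against 8 on all wild type arrays and 8 on both of the other mutant arrays. The bound was lower there, 14.7 and 16.2 against 16.4 to 37.7 on the other arrays, so these counts are not on equal terms. Has2, for example, counted as above it at 17 and 26.9, while wild type read 12.9 to 26.3. Inha read 2364 or more against 116 or less, Inhba 2383 or more against 34.8 or less, and Fst, Hsd3b1 and Vim also stood apart. Amhr2, Nr5a2, Cyp11a1, Has2, Ptgs2 and Ptx3 did not. Above all other samples in replicates 3 and 4 lay 2 of 8 oviduct markers, 0 of 8 sperm markers and 3 of 9 blood markers. The blood markers had summed signals of 1085 to 1104 there, against 389 to 692 in the other samples. Of all tested probe sets, 24.9% lay above every wild type sample in both replicates 3 and 4. That rule is looser, as mutant replicates 1 and 2 do not enter it, and the share above all other samples was not counted. For these reasons each mutant pair is also given apart, a split known from earlier results on these arrays. The part of the granulosa signal in the differences below was not tested, and in pooled embryos fewer cells of a type and less RNA per cell cannot be told apart.

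Dusp5, which encodes a nuclear phosphatase selective for ERK, was the member with the lowest mutant signal relative to wild type. Its single probe set, 1437199_at, read 354, 249, 196 and 271.5 in wild type replicates 1 to 4. In mutant replicates 1 to 4 it read 22.9, 54.8, 8.1 and 13.3. Every mutant sample was below every wild type sample, and 3 of the 4 mutant values lay under the background bound. On the log2 scale the wild type mean was 8.03 ± 0.35 (SD, n = 4) and the mutant mean 4.26 ± 1.18 (SD, n = 4). The measured difference was -3.77 (SE 0.522). With each mutant value under the bound set at the bound it was -3.42, so that Dusp5 was at least 10.7-fold lower in mutants, and with a pseudocount added to every signal it was -3.03. By the measured difference Dusp5 ranked in place 2 of 11934 genes, the values for which it was picked. Mutant replicates 1 and 2 alone, the first of them under the bound, were at least 6.78-fold lower than wild type. Replicates 3 and 4, both under the bound, were at least 17-fold lower when the bound stood in for their signal. The bound was 14.7 and 16.2 on replicates 3 and 4 and 27.2 on replicate 1, so the limits of the pairs are not on equal terms.

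The window before the Dusp5 start site is shown because it was the only one of 8 member windows to hold CArG boxes, the site of serum response factor, which carries growth factor signals to early response genes. Beside it stand the windows of Dusp1 and Dusp6, members with a window whose signals were high in mutant replicates 3 and 4. All are from RefSeq on GRCm38.p6 and run 5′ to 3′ over the 250 bases before the annotated start. Capitals mark CArG boxes in Dusp5 (chr19:53528895-53529144, plus strand), the cyclic AMP response element TGACGTCA in Dusp1 (chr17:26508473-26508722, minus strand) and a CCAAT box in Dusp6 (chr10:99262981-99263230, plus strand).
Dusp5: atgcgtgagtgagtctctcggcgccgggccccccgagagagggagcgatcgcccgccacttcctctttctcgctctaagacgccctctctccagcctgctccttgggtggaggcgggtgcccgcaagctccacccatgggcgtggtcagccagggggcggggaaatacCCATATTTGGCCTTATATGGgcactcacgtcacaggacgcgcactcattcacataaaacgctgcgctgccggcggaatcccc
Dusp1: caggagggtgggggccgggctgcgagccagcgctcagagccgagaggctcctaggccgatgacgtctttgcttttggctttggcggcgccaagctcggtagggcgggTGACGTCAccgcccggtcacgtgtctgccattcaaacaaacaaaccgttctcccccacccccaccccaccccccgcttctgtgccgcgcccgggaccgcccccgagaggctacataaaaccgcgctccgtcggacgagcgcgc
Dusp6: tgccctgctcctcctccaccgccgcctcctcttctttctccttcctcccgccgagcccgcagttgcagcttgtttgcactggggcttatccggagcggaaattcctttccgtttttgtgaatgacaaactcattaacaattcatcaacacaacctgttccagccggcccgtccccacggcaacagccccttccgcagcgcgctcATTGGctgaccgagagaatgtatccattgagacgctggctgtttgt
The CArG boxes of Dusp5 begin 82 and 72 bases before the start site and abut each other. Among 32851 RefSeq windows of 300 bases, reaching 50 bases past the start, 1.63% held a CArG box and 6 windows held 2 or more. TGACGTCA was found in Dusp1 and Dusp8, and in 1.79% of all windows. The CCAAT box, searched as CCAAT, was found in Dusp6, Dusp7, Dusp8, Dusp10 and Dusp16, and in 37.4% of all windows. GGGCGG, the GC box, was found in 7 of the 8, all but Dusp6, and in 35.7% of all windows. The AP-1 site TGANTCA, the ETS site CCGGAAG and the TATA box TATAAA matched none of the 8 windows, and 7.81%, 8.86% and 13.6% of all windows. Both strands were searched, and the motifs were chosen with the member sequences in view. Dusp4 and Dusp9 had no entry in the window table.

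**Figure D1:**
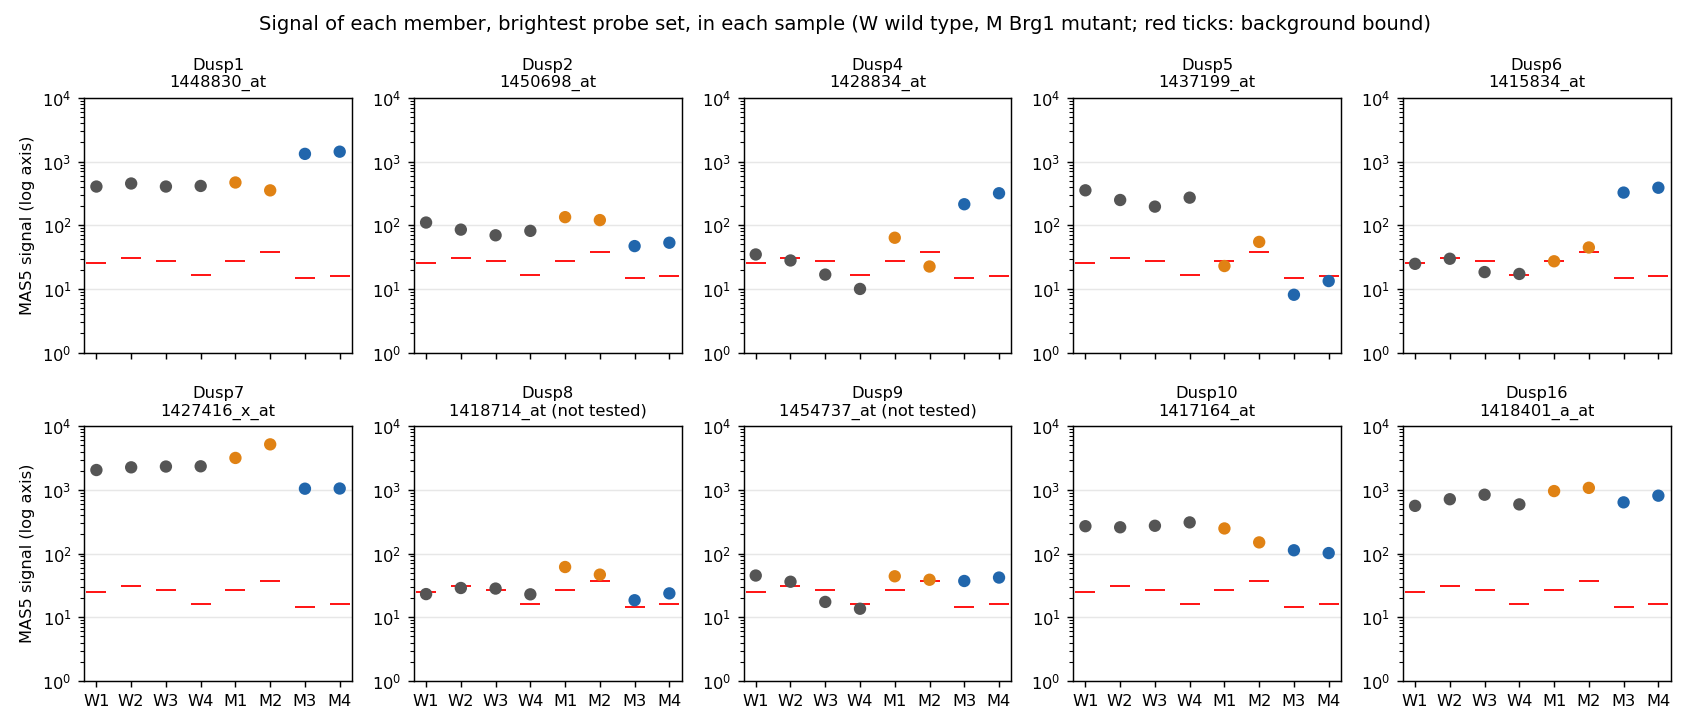
MAS5 signal on a log axis for the brightest probe set of each of the 10 genes in wild type samples (W1 to W4, grey), mutant replicates 1 and 2 (orange) and mutant replicates 3 and 4 (blue), with a red tick at each array's background bound. Dusp5 is lower in all 4 mutant samples, and Dusp1, Dusp4 and Dusp6 are highest in M3 and M4. Dusp8 and Dusp9 are dim, each with 2 wild type values and 0 mutant values under the bound.

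Of the other nuclear enzymes, Dusp1 and Dusp4 were higher in mutant replicates 3 and 4, and neither passed for replicates 1 and 2. Dusp1, the inducible phosphatase known as MKP-1, read 406, 453, 406 and 415 in wild type samples. The mutant samples read 470, 353, 1323 and 1432. Replicates 3 and 4 stood 3.28-fold above wild type (log2 difference 1.71, SE 0.169, limma adjusted p = 9.51e-05), and the log2 difference of replicates 1 and 2 was -0.04 (SE 0.237, limma adjusted p = 0.934). Over all 8 samples the groups overlapped and the difference did not pass (log2 difference 0.84, SE 0.432, limma adjusted p = 0.256). Dusp4, a nuclear enzyme of the same subgroup, read 34.8, 28, 16.8 and 10 in wild type, with 3 of the 4 under the background bound. It read 63.7, 22.5, 214 and 318 in the mutants. The log2 difference was 3.70 for replicates 3 and 4 (SE 0.499, limma adjusted p = 0.000474), 0.91 for replicates 1 and 2 (limma adjusted p = 0.454) and 2.30 over all samples (SE 0.770, limma adjusted p = 0.0967). Most wild type values being under the bound, the size of the Dusp4 difference is uncertain.

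Dusp2, an enzyme best known from activated leukocytes, had mutant pairs on opposite sides of wild type. It read 110.4, 85.4, 69.6 and 81.7 in wild type samples and 134, 121, 47.1 and 53.2 in mutants. Replicates 1 and 2 lay above all wild type samples (log2 difference 0.57, limma adjusted p = 0.241) and replicates 3 and 4 below them (log2 difference -0.77, limma adjusted p = 0.0493). Over all samples the difference was -0.10 (SE 0.389, limma adjusted p = 0.904).

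Among the cytoplasmic enzymes, Dusp6 was higher and Dusp7 lower in mutant replicates 3 and 4. Dusp6, whose transcript is widely used as a readout of FGF and ERK activity, read 24.8, 29.8, 18.4 and 17.2 in wild type, 3 of the 4 under the background bound. The mutant samples read 27.2, 44.8, 326 and 389. The log2 difference was 4.02 for replicates 3 and 4 (SE 0.323, limma adjusted p = 3.61e-05) and 0.67 for replicates 1 and 2 (SE 0.555, limma adjusted p = 0.485). Over all samples the log2 difference was 2.34 (SE 0.796, limma adjusted p = 0.101).

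Dusp7 was read by 3 tested probe sets that gave 1 direction for replicates 3 and 4 and both directions for replicates 1 and 2. On 1460393_a_at wild type signals were 436.2, 436.4, 447 and 472, and the mutants read 334.5, 434, 112 and 89.7, all below wild type. On 1452097_a_at they read 759, 792, 891.5 and 812 against 735, 1236.5, 258.5 and 272. On 1427416_x_at, whose suffix marks probes that may also match other transcripts, they read 2053, 2262, 2328 and 2349 against 3177, 5192.5, 1045 and 1051.5. Replicates 3 and 4 were lower than every wild type sample on each probe set, by 4.47-fold, 3.06-fold and 2.14-fold in that order (log2 differences -2.16, -1.61 and -1.10, limma adjusted p between 6.29e-05 and 0.000498). Replicates 1 and 2 differed from wild type by -0.23, 0.23 and 0.86 on the log2 scale (limma adjusted p = 0.569, 0.610 and 0.0541). Over all samples none of the 3 passed (log2 differences -1.20, -0.69 and -0.12, limma adjusted p = 0.143, 0.382 and 0.907).

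Dusp9, the third cytoplasmic enzyme, known for its role in placenta and in pluripotent cells, was dim. Its brightest probe set, 1454737_at, read 45.2, 36.1, 17.4 and 13.6 in wild type and 44, 38.8, 37.1 and 42 in mutants. The mutant values lay within the wild type range, and 2 wild type values but 0 mutant values were under the bound. The second Dusp9 probe set, 1433845_x_at, read 10.5 to 39.1 in wild type and 25 to 87.9 in mutants. On it 3 wild type values and 0 mutant values were under the bound. The last, 1433844_a_at, was under the bound on all 8 arrays. None was bright enough to be tested.

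Of the enzymes that prefer JNK and p38, Dusp10 read lower in the mutants and Dusp16 did not separate the groups. Dusp10, known as MKP-5, read 269, 259, 273 and 309 on 1417164_at in wild type samples. The mutants read 248, 149.8, 113 and 102. Every mutant sample was below every wild type sample, but the difference over all samples did not pass (log2 difference -0.95, SE 0.299, limma adjusted p = 0.0828). It passed in 4 of 19 alternatives, 1 of them with each array centred on its median (log2 difference -1.12, limma adjusted p = 0.0397). The others left out mutant replicate 1, left out replicates 1 and 2, or gave these arrays low weights (limma adjusted p = 0.0178, 0.000715 and 0.000131). Median centring also moved the lower calls over the whole array from 807 to 1557. Dusp10 did not pass with quantile normalization or with centring on the 75th percentile (limma adjusted p = 0.0955 and 0.0694). Replicates 3 and 4 were 2.59-fold below wild type (log2 difference -1.37, limma adjusted p = 0.000715) and replicates 1 and 2 1.44-fold (log2 difference -0.52, limma adjusted p = 0.267). The other Dusp10 probe set read 7.9 to 53.3 in wild type and 6.7 to 23.6 in mutants, too dim to be tested.

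Dusp16, known as MKP-7, read 562, 714, 840.4 and 592 on 1418401_a_at in wild type and 958, 1076, 638 and 812 in mutants. Replicates 1 and 2 exceeded every wild type sample (log2 difference 0.60, limma adjusted p = 0.160), and replicates 3 and 4 fell within the wild type range (log2 difference 0.11, limma adjusted p = 0.722). The difference over all samples was 0.35 (SE 0.246, limma adjusted p = 0.403). Its other probe set, 1440615_at, read at most 21.1 and was under the bound on all 8 arrays. Dusp8, known mainly from brain and heart, was dim on its 3 probe sets. The brightest, 1418714_at, read 22.9 to 28.8 in wild type, 61.5 and 46.7 in mutant replicates 1 and 2, and 18.5 and 23.7 in replicates 3 and 4. The 2 dimmer ones, 1428864_at and 1447346_s_at, read at most 25 and at most 7 and were under the bound on every wild type array.

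**Figure D2:**
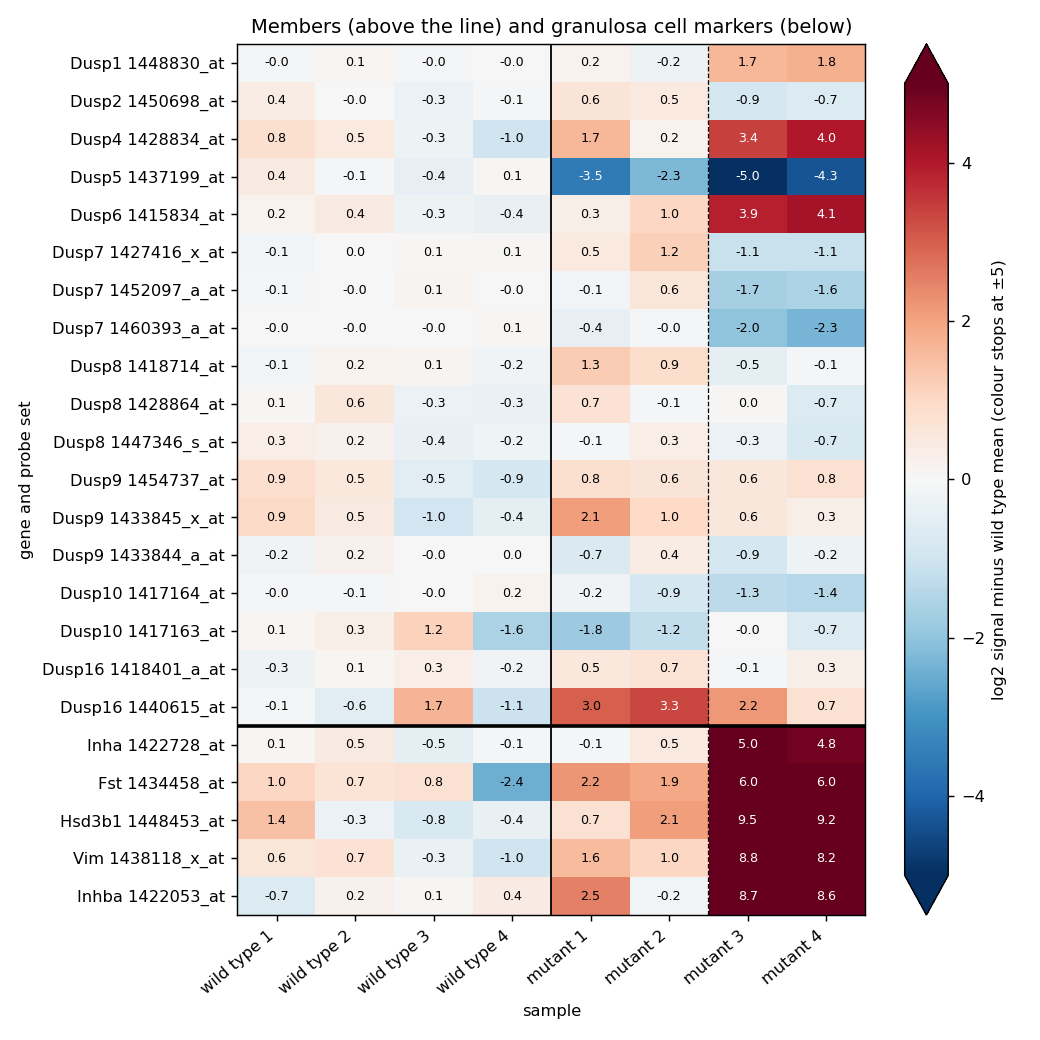
Log2 signal of each of the 18 member probe sets, and of 5 granulosa cell markers below the line, minus the wild type mean of the same probe set, in each of the 8 samples. Colour stops at 5 log2 units in either direction and the printed figures give the value. The Dusp5 row is negative in all 4 mutant samples, and Dusp1, Dusp4 and Dusp6 are highest in mutant replicates 3 and 4, where the markers are high. Some dim, untested probe sets differ more in replicates 1 and 2, such as Dusp16 1440615_at and Dusp9 1433845_x_at (mean differences 3.15 and 1.55).

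Leaving out Dusp5, 0 of the 9 tested member probe sets passed in the comparison of all samples with limma, where 6.56% of all tested probe sets did (2.98% higher and 3.58% lower). Unadjusted p was under 0.05 for 4 of the 9, those of Dusp4, Dusp6, Dusp7 (1460393_a_at) and Dusp10, and for 25.5% of all tested probe sets. Their median log2 difference was -0.10, against -0.05 for all tested probe sets. Wild type and mutant ranges stood clear of each other for 2 of the 9, Dusp7 (1460393_a_at) and Dusp10, both lower in mutants, as they did for 17.5% of all tested probe sets (7.83% higher and 9.67% lower). Without mutant replicate 1 the count that passed was 2 (Dusp6 and Dusp10), where 12% of all tested probe sets passed. Without mutant replicate 2 it was 2 as well (Dusp4 and Dusp7, 1460393_a_at), where 13% of all passed.

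Taken apart, mutant replicates 1 and 2 differed from wild type at the threshold on 0 of the 9 probe sets with limma, against 6.71% of all tested that passed (3.6% higher and 3.11% lower). Unadjusted p was under 0.05 for 2 of the 9, and again for 25.5% of all tested. Both samples lay beyond the wild type range for 5 of the 9, those of Dusp2, Dusp16 and Dusp7 (1427416_x_at) above it and those of Dusp10 and Dusp7 (1460393_a_at) below it, and for 35.2% of all tested probe sets (20.2% higher and 15.1% lower). Replicates 3 and 4 differed on 8 of the 9: Dusp1, Dusp4 and Dusp6 higher, and Dusp2, Dusp10 and the 3 probe sets of Dusp7 lower. The background was wide there, with 41.6% of all tested probe sets passing, 18.3% higher and 23.2% lower. The same 8 lay beyond the wild type range in both samples, as did 59.4% of all tested (24.9% higher and 34.5% lower). The difference between the pairs was not tested, since the pairs were told apart by their arrays.

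**Figure D3:**
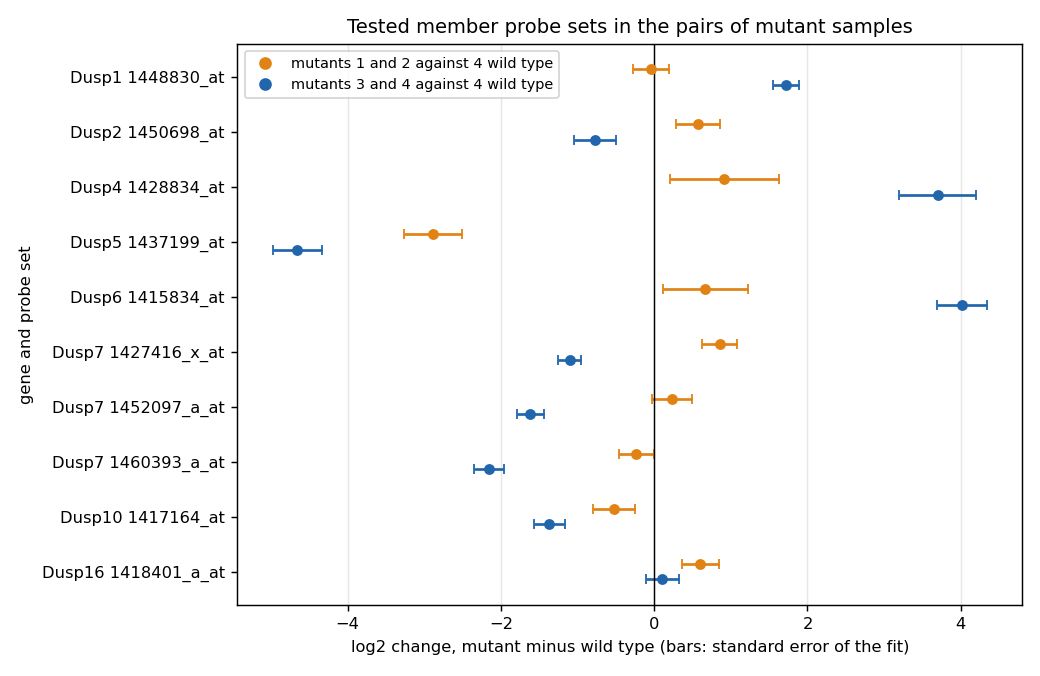
Log2 change from wild type of the 10 tested member probe sets, with standard errors of the fit, for mutant replicates 1 and 2 (orange) and replicates 3 and 4 (blue), each against the 4 wild type samples. Dusp5 lies to the left for both pairs, at -2.89 and -4.66, and for the blue pair all other probe sets but that of Dusp16 passed, with Dusp1, Dusp4 and Dusp6 to the right of 0 and Dusp2, Dusp7 and Dusp10 to the left.

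The genes whose signal followed that of Dusp5 most closely over the 8 samples were Wdr48, Knstrn, Anapc1, Agfg1, Daam1 and Sh2d3c, with Pearson r between 0.989 and 0.993, out of 11767 ranked genes. The samples share group and array effects, so the values are a description. They hold for the probe set nearest to Dusp5: of 14 other tested probe sets of these genes, 3 passed as lower (2 of Agfg1 and 1 of Daam1) and 11 did not pass. Of all tested probe sets, 3.58% passed as lower and 2.98% as higher. Wdr48, a cofactor of ubiquitin-specific proteases, read 203 to 217 in wild type and 104, 133, 76.1 and 88.8 in mutant replicates 1 to 4. Anapc1, a scaffold subunit of the anaphase-promoting complex, read 324 to 361 in wild type and 88.3, 142, 45 and 57.4 in mutants. Its 3 other tested probe sets did not pass (log2 differences -0.24, 0.81 and 0.86, limma adjusted p between 0.0518 and 0.583). Those at 0.81 and 0.86 ran opposite to Dusp5 (r = -0.83 and -0.90). Daam1, a formin of the actin cytoskeleton, read 1422 to 1735 in wild type and 543, 731.5, 293 and 455 in mutants. Among the mutants these 3 probe sets, like those of Knstrn, Agfg1 and Sh2d3c, had replicate 2 highest and replicate 3 lowest, as Dusp5 did. They were chosen by r over the same samples, so neither the shared order nor the count of lower calls for these genes is a separate observation. Within the family, Dusp1 and Dusp7 (1460393_a_at) ran most nearly opposite over the 8 samples (r = -0.988), and Dusp1 and Dusp6 ran together (r = 0.949). In these probe sets the widest gap lay between replicates 3 and 4 and the other samples, and r without those replicates was not computed.

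Other genes of the MAP kinase pathway were read from 7 lists with 95 tested genes. Of these, 4 rose, 6 fell and 85 did not pass, while 7.04% of all tested genes passed (3.01% higher and 4.03% lower). The feedback inhibitors Spry1 and Spry2, which restrain RAS and ERK signalling below receptor tyrosine kinases, fell 2.86-fold and 2.44-fold (log2 changes -1.51 and -1.29, limma adjusted p = 0.0273 and 0.0234). Spry1 read 432 to 846 in wild type and 296, 265, 179.9 and 132 in mutants, and Spry2 read 367 to 807 against 216, 221, 243.5 and 217. The other 9 tested negative regulators of ERK did not pass, among them Spry4, which read 2282 to 3571 in wild type, 3617 and 5072 in mutant replicates 1 and 2, and 990 and 1142 in replicates 3 and 4.

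Upstream of the MAP kinases, the receptor gene Egfr fell 2.22-fold (limma adjusted p = 0.0305) and the kinase genes Map3k3 and Map3k5 fell 2.42-fold and 2.07-fold (limma adjusted p = 0.0251 and 0.0314). Lamtor3, a scaffold for MEK and ERK on late endosomes, rose 2.74-fold (limma adjusted p = 0.0244). Of 5 tested MAP kinases 0 passed with limma on the brightest probe set, 2 had an unadjusted p under 0.05, as did 27% of all genes, and the median log2 difference was -0.41. The brightest probe set of Mapk14, which encodes p38 alpha, differed by -0.91 (limma adjusted p = 0.0594), while a dimmer one, 1416704_at, passed as lower (log2 change -1.70, limma adjusted p = 0.0413). Downstream, Rps6ka5, which encodes the nuclear kinase MSK1, fell 2.68-fold (limma adjusted p = 0.0205). The transcription factor genes Atf3 and Elk3 rose 4.33-fold and 2.43-fold (limma adjusted p = 0.0213 and 0.0455), Atf3 from 18.7 to 47.7 in wild type to 86.6 to 247 in mutants. Of the atypical dual-specificity phosphatases Dusp3, known as VHR, rose 1.94-fold (limma adjusted p = 0.0498) and 13 others did not pass.

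The count of list calls moved with single samples, as did the count over the array. Without wild type replicates 1, 2, 3 and 4 the lists held 0, 1, 1 and 0 calls, and without mutant replicates 1, 2, 3 and 4 they held 19, 20, 0 and 2. Over all 22518 tested probe sets the same fits held 117, 442, 208 and 73 calls, then 2709, 2926, 283 and 378, against 1478 with all samples. Of 11 other tested probe sets of the 10 genes, 1 passed in the same direction and 10 did not pass. Of 89 other tested probe sets of the 85 genes without a call, 3 passed: that of Mapk14, and 1 each of Mapkapk3 and Spred1, both higher (log2 changes 2.74 and 1.12, limma adjusted p = 0.0217 and 0.0405). Across the array 6.56% of tested probe sets passed, the share to set beside both counts. With mutant replicates 1 and 2 as the only mutants, Spry2, Rps6ka5, Map3k3, Atf3 and Elk3 passed, which is no separate support, since the same arrays had entered the choice of the 10. Egfr, Spry1, Map3k5, Lamtor3 and Dusp3 did not (limma adjusted p = 0.0709, 0.0657, 0.0692, 0.0607 and 0.136).

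In mutant replicates 3 and 4, where Dusp1, Dusp4 and Dusp6 were high, some early response genes rose and others did not. Of 25 tested genes on the list of MAP kinase-responsive factors, 11 rose and 5 fell there (64% of the list, against 43.5% of all genes, 19.2% higher and 24.4% lower), and 9 did not pass. In replicates 1 and 2, 2 rose, where 7.44% of all genes passed (3.86% higher and 3.58% lower). Fos read 27.8 to 63.7 in wild type, 78.1 and 128 in mutant replicates 1 and 2, and 3489 and 3202 in replicates 3 and 4. Ier3 read 53.8 to 80.5, then 127 and 109, then 1779 and 1768. Egr2 was under the background bound in every wild type sample and at least 37.8-fold higher in replicates 3 and 4 (limma adjusted p = 7.70e-06). Jun, Myc, Ier2 and Nr4a1 rose between 7.40-fold and 18.7-fold there, and Atf3, Egr1, Elk3 and Jund between 1.94-fold and 3.89-fold. In replicates 1 and 2 Egr1 differed the other way, by -1.12 on the log2 scale, and did not pass (limma adjusted p = 0.109). Fosb, Fosl1, Fosl2, Egr3, Ier5, Mcl1 and Phlda1 did not pass there (log2 differences between -0.67 and 0.70, limma adjusted p between 0.0682 and 0.998). Srf, the gene of serum response factor, went the other way, reading 387 to 460.5 in wild type, 294 and 342 in replicates 1 and 2, and 127 and 102 in replicates 3 and 4 (log2 change -1.85, limma adjusted p = 0.00015). Etv5, Elk1, Elk4 and Atf2 fell there as well (log2 changes -0.90, -0.96, -1.08 and -0.94, limma adjusted p between 0.00308 and 0.0299). The granulosa markers were high on the same arrays, as given above, and their part in these values was not tested.

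**Figure D4:**
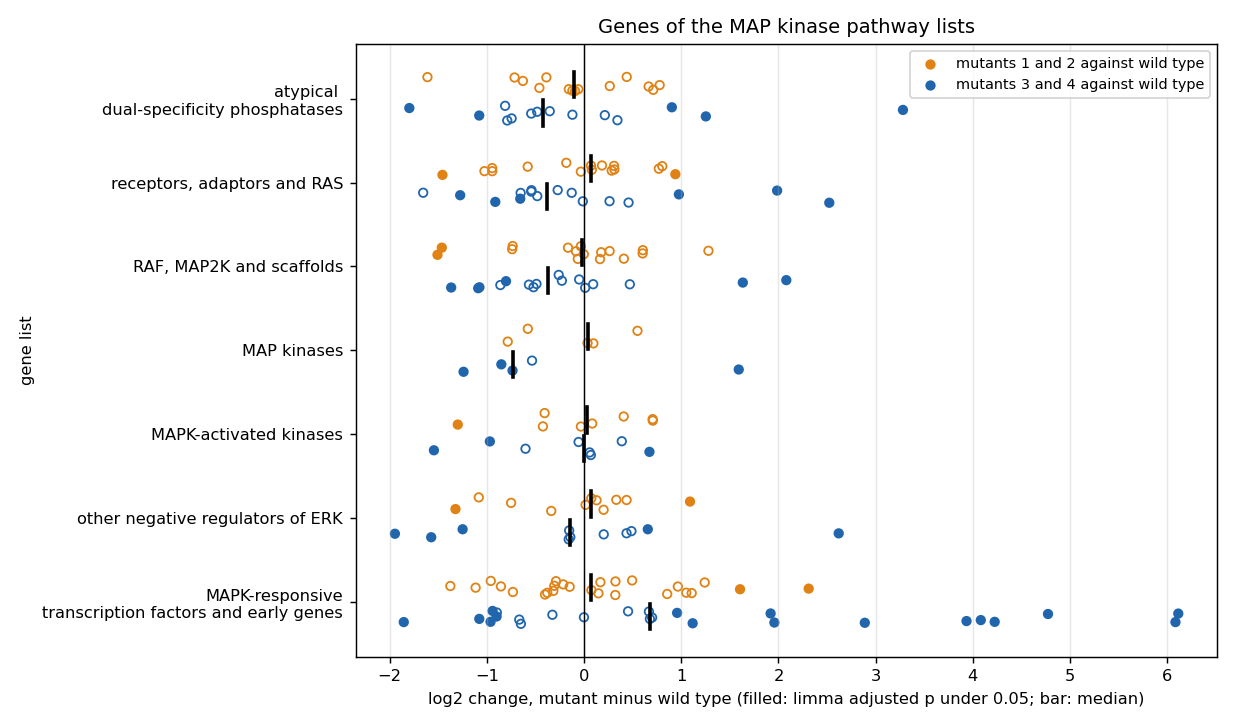
Log2 change from wild type of the 95 tested genes of 7 MAP kinase pathway lists, for mutant replicates 1 and 2 (orange) and 3 and 4 (blue), filled where the limma adjusted p was under 0.05, with a bar at each median. The largest values, 3.93 to 6.11, belong to early response genes in replicates 3 and 4.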

How the data were processed

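Total RNA of 20 pooled embryos per sample was labelled with biotin and read on Affymetrix arrays, per the labels' protocols. The authors deposited linear intensities, namely MAS5 signals by probe set (named in the submitters' processing notes), and the 2% trimmed mean was 150 on all 8 arrays. No arrays were identical, and precision is limited by their number.

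Log2 was taken with a floor of 1. Without 64 control probe sets, the upper 50% by mean log2 signal (22518 probe sets) entered limma 3.58.1 in R 4.3.3 (intensity trend, two-sided), with Benjamini-Hochberg adjustment over that table and a threshold of 0.05. The fit was tried on simulated independent normal values with the same spread in both groups. These lack the gap between the mutant pairs, so the trial cannot show how the fit behaves with it. Changes are mutant minus wild type, and folds come from mean log2 signals. The background bound used 27 control probe sets of Bacillus transcripts and was chosen after the data were seen. Labels call the samples biological replicates and name no separate collections, so p-values reflect only how these samples vary, which may be technical. Probe sets were matched by the platform's gene symbols, and promoter windows came from a RefSeq table of GRCm38.p6. For each list, a gene was read by its brightest tested probe set.

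All member probe sets were named, with list genes that passed (at most the 6 smallest adjusted p per list), the 6 genes most like Dusp5, and genes given for the pairs of mutant arrays, which were chosen after their values were seen. Members, lists and the pairs were chosen with earlier results of these data known. Alternatives were other scalings, filters, a pseudocount, no trend, weighted arrays, a replicate block and samples left out.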

Additional observations from a re-analysis of the deposited data

How the results depend on the processing

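The Dusp5 difference was -2.89 to -4.66 over 18 alternatives; it was not in the upper 30% by signal, nor were Dusp2, Dusp4 and Dusp6, and has no value there. The number of probe sets changed across the array was 1478, and 9358 without mutant replicates 1 and 2, 11486 with array weights (0.213 and 0.171 for mutant replicates 1 and 2 against 1.91 to 3.17 for 3 and 4), and 73 to 2926 when each sample was left out. Higher and lower calls were 671 and 807, and 421 and 1557 with median centring and 496 and 1104 with centring on the 75th percentile, where the median change moved from -0.05 to -0.22 and -0.19. With the replicate number as a block 15 remained in number, and 0 of 9 member probe sets passed. Same-numbered samples deviated together at r = 0.02, -0.18, -0.13 and -0.09. The wide gap between the mutant pairs enters these values, so they cannot decide whether the numbers pair the samples. The count of member probe sets that passed, 0, became 1 with median centring (Dusp10), 8 with array weights and 8 without mutant replicates 1 and 2, and ran from 0 to 2 when each sample was left out. The pathway lists held 10 calls, 6 with all probe sets of a gene averaged, 45 without mutant replicates 1 and 2, and 0 to 20 when each sample was left out. Without mutant replicates 3 and 4 the sign turned for Dusp1 (-0.042), Dusp2 (0.57) and Dusp7 on 1427416_x_at (0.86) and 1452097_a_at (0.23). With each sample left out Dusp2 ran from -0.35 to 0.15 and Dusp7 on 1427416_x_at from -0.57 to 0.21. The causes were not tested. Dim signal limits Dusp4, Dusp6, Dusp8 and Dusp9.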
